A study of Homo sapiens with 30 samples.

Results

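The 9 genes described here encode receptors through which neuroblastoma cells receive growth, survival and differentiation signals: ALK, RET, NTRK2, NTRK3, NGFR, GFRA2, GFRA3, ERBB3 and IGF1R. They were chosen by name, with earlier results of these data known. All 9 were found by gene symbol among the 52007 gene IDs that the 3 expression tables shared. Gene expression had been measured by RNA sequencing in 30 libraries of the established human neuroblastoma lines NGP, IMR32 and SK-N-BE(2)c, each of which carries amplified MYCN. Cells of every group, controls included, had received an antisense oligonucleotide (ASO) at 100 nM with the transfection reagent lipofectamine 2000. IMR32 was represented by 4 libraries each of ASO1, ASO2 and the negative control ASO (NCA). NGP and SK-N-BE(2)c were each represented by 3 libraries of ASO2, ASO10 and NCA. ASO1, ASO2 and ASO10 are directed at NESPR, a long non-coding RNA that the series describes as specific to adrenergic neuroblastoma cells, so each comparison asks how expression differed when NESPR was targeted. A cell without transfection, the time from transfection to harvest and the level of NESPR itself were not analysed here, and the labels do not say whether the libraries of a group came from separate cultures, so p-values measure only the spread between these libraries.

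Receptor tyrosine kinases such as ALK, RET, the TRK receptors, ERBB3 and IGF1R sit in the cell membrane, bind a secreted ligand on the outside and pass the signal through adaptor proteins to the RAS and PI3K pathways. GFRA2 and GFRA3 are co-receptors that hand GDNF-family ligands to RET, and NGFR (p75) is a neurotrophin receptor without kinase activity. In the sympathetic nervous lineage from which neuroblastoma arises these receptors steer neuroblast survival, outgrowth and death, and activating mutations of ALK are a known driver of familial and sporadic neuroblastoma.

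The promoters of ALK, RET and IGF1R are shown because the responses of these 3 kinase genes to the ASOs differed. Each is the stretch of 250 bases before the gene start in RefSeq, build GRCh38.p14, written 5' to 3' on the strand of the gene, with GC boxes (GGGCGG on either strand, some neighbouring matches sharing a base) in capitals. The ALK stretch lies at chr2:29921587-29921836 on the minus strand, that of RET at chr10:43076819-43077068 on the plus strand and that of IGF1R at chr15:98648289-98648538 on the plus strand.
ALK: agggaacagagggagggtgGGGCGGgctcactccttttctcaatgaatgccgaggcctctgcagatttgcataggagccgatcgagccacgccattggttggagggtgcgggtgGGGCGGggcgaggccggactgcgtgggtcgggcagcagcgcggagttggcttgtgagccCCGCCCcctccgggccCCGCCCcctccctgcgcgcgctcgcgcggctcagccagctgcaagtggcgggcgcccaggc
RET: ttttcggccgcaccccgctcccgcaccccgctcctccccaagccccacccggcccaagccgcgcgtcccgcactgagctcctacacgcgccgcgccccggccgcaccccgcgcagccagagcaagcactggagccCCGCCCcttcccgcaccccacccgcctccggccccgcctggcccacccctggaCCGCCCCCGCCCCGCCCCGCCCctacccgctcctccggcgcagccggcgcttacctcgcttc
IGF1R: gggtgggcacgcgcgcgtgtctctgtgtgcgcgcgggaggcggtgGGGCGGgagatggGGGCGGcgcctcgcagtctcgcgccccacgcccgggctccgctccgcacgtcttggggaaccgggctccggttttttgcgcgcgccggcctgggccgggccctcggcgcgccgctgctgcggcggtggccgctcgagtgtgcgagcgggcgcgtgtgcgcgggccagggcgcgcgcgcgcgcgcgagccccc
ALK held 4 GC boxes, RET 5 and IGF1R 2, and a GC box was found in 42.6% of the 35116 promoters of this length in the table. Their GC contents were 71.6% for ALK, 79.6% for RET and 81.2% for IGF1R, against a median of 58% over all promoters. The E-box CACGTG (6.34% of promoters) and the GATA motif AGATAA (9.17%), searched on both strands, were not found in these windows. NTRK3, with 2 GC boxes, and NTRK2 and GFRA3, with 1 each, were the other receptor genes matched in that table.

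The libraries held from 9393587 to 15060356 reads counted to genes, recovered from the deposited normalized counts. Markers of adrenergic neuroblastoma (a list that includes HAND2, GATA3, ISL1, TH and DBH) were above 3 reads in each of the 9 groups, for 8 of 8 genes. Their summed level was lower with ASO10 than with NCA, at 27349 to 28582 against 37110 to 38570 normalized counts in NGP, while SK-N-BE(2)c had 25695 to 26812 against 29315 to 33021. With ASO2 it was 33875 to 34812 in NGP, while SK-N-BE(2)c had 28421 to 30273, overlapping its controls. In IMR32 it was 23061 to 25637 with ASO1 and 24328 to 25956 with ASO2, below the 26059 to 27370 of the controls. Called lower and higher (limma adjusted p under 0.05) were 3 and 1 of 8 with ASO1 and 2 and 1 with ASO2 in IMR32. In NGP these counts were 5 and 1 with ASO2 and 8 and 0 with ASO10. In SK-N-BE(2)c they were 4 and 3 with ASO2 and 6 and 0 with ASO10. GATA2 was the higher gene in IMR32 (log2 fold change 0.52 and 0.44). ISL1 (0.57), DBH (0.27) and GATA3 (0.18) were those in SK-N-BE(2)c. The shares of all genes called are given below. The summed level of mesenchymal neuroblastoma markers was higher with ASO2 than with NCA, at 3320 to 3510 against 2464 to 2996 in IMR32, 13480 to 14439 against 9782 to 9904 in NGP, while SK-N-BE(2)c had 3783 to 3851 against 2736 to 2902. With ASO10 it was 11138 to 11841 in NGP, while SK-N-BE(2)c had 3552 to 3801. With ASO1 in IMR32 it overlapped the controls at 2598 to 3190. Most of this sum was 1 gene, VIM, with an ASO2 mean of 13262 in NGP, 3615 in SK-N-BE(2)c and 2914 in IMR32. Of 5 tested in NGP, 3 were higher and 1 lower with ASO2 (limma adjusted p under 0.05), and 3 and 2 with ASO10. FN1 was lower with both (log2 fold change -0.34 and -0.74) and NOTCH2 with ASO10 (-1.23). Of 3 tested in SK-N-BE(2)c, VIM was higher and CD44 lower (-1.13) with ASO2. With ASO2 in IMR32, 2 of 5 were higher and none lower. With ASO2, the summed level of fibroblast and endothelial markers ran from 507.8 to 582.5 in NGP against 292.3 to 311.4 with NCA. It ran from 604.4 to 695.8 against 373.6 to 397.1 in SK-N-BE(2)c, and from 873.6 to 1041 against 700.8 to 767.3 in IMR32. With ASO10 it overlapped the controls in NGP (270.2 to 351.5) and lay below them in SK-N-BE(2)c (329.5 to 367.2). With ASO1 in IMR32 it overlapped them (757.4 to 837.0). Most of this sum in IMR32 was 1 gene, COL1A1, with a mean of 889.7 with ASO2 and 681.9 with NCA. With ASO2, 1 of 3 tested genes of this list was higher in IMR32, 4 of 4 in NGP and 3 of 3 in SK-N-BE(2)c. Of the endothelial markers, CDH5 was at or below 3 reads in every NGP group, while its mean in SK-N-BE(2)c was 2.98 with NCA, 16.2 with ASO2 and 6.84 with ASO10. In IMR32 the mean of PECAM1 was 4.93 with NCA, 17.1 with ASO1 and 7.74 with ASO2, and that of CDH5 was 45.3, 45.1 and 43.6. The part of these shifts in the receptor results was not tested, and in bulk RNA fewer cells of a kind and less RNA per cell cannot be told apart.

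ALK and GFRA2 were the 2 receptor genes called lower in all 6 comparisons of a NESPR ASO with NCA. Of 57 ligand, co-receptor and signalling genes tested in all 6, 5 were also lower in all 6. The share of all genes lower in all 6 was not counted, so how unusual this is remains unknown. A gene was called at an adjusted p under 0.05 in limma, fitted over every gene with a mean of at least 10 normalized counts in its table, and a fold change is on the scale of log2(normalized count + 1). That minimum was passed by 7 of the 9 receptor genes in each line; NTRK2 passed in none, GFRA3 only in SK-N-BE(2)c, and NTRK3 only in IMR32 and NGP. With ASO1 in IMR32, 6 of the 7 tested receptor genes were lower and none was higher, where 28% of all genes tested were called in either direction (13.6% higher and 14.4% lower). With ASO2 in IMR32, 5 were lower and 1 higher (32.4% of all genes called). In NGP, 4 were lower with ASO2 (58.7% called), and with ASO10 3 were lower and 2 higher (54.4%). In SK-N-BE(2)c, 4 were lower with ASO2 (67%), and with ASO10 3 were lower and 2 higher (58.9%). In SK-N-BE(2)c as in NGP the receptors' share called was near that of all genes, and in IMR32 it was higher. The receptor genes were chosen with earlier results of these data known, so the higher share in IMR32 is a description and supports nothing about receptors as a class. The median log2 fold change of the tested receptor genes was -0.42 and -0.31 with ASO1 and ASO2 in IMR32, -0.54 and -0.28 with ASO2 and ASO10 in NGP, and -0.60 and 0.11 in SK-N-BE(2)c, where the median of all genes lay between -0.03 and 0.01. In NGP, as in SK-N-BE(2)c, ERBB3 passed the minimum only through ASO10, so that its place among the 2 higher genes there supports nothing. The ASO10 medians of these lines include ERBB3, so that the 0.11 in SK-N-BE(2)c and its sign support nothing either. Both ASO groups of a line share its NCA libraries.

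**Figure D1:**
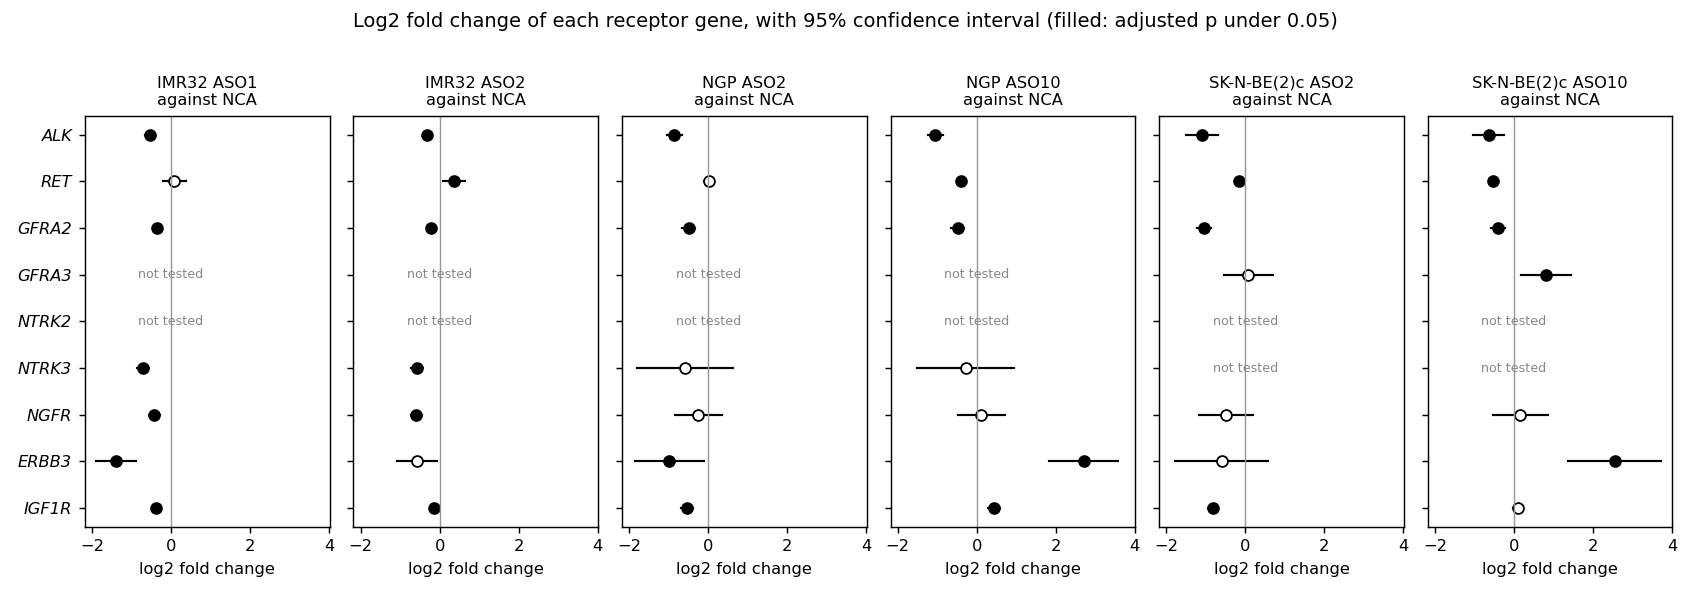
Log2 fold change of each receptor gene (rows) in the 6 comparisons with NCA (panels), with the 95% confidence interval as a line. Filled points are called at an adjusted p under 0.05 in limma and open points are not. ALK and GFRA2 lie left of 0 in every panel, and ERBB3 lies far right of 0 in both ASO10 panels. In those lines ERBB3 passed the minimum level only through ASO10, so that its filled points in the ASO10 panels support nothing.

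ALK, the kinase whose ligands are the ALKAL cytokines, was measured in IMR32 control libraries at 1149, 1205, 1329 and 1278 normalized counts, in ASO1 libraries at 775.7, 886.4, 854.0 and 889.8, and in ASO2 libraries at 1023, 1001, 1024 and 942.7. Every ASO library lay below every control, and the ASO1 libraries also lay below the ASO2 libraries. ALK fell with ASO1 by 0.54 on the log2 scale (SE 0.06, limma adjusted p = 5.69e-07) and with ASO2 by 0.31 (SE 0.06, adjusted p = 0.000339).

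In NGP the ALK transcript was at 758.5, 790.4 and 895.3 normalized counts with NCA, at 397.3, 517.4 and 432.7 with ASO2 and at 375.0, 396.5 and 406.3 with ASO10. Both ASO groups lay wholly below the controls and overlapped each other. The fall was 0.86 with ASO2 (log2, SE 0.09, limma adjusted p = 1.46e-08), and with ASO10 the log2 fold change was -1.05 (SE 0.09, adjusted p = 5.47e-10).

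SK-N-BE(2)c had less ALK than NGP: 122.4, 94.8 and 118.5 normalized counts with NCA, 54.1, 57.1 and 44.4 with ASO2, and 99.5, 57.3 and 63.7 with ASO10. The ASO2 libraries were all below the controls, whereas replicate 1 of ASO10 exceeded the lowest control. The log2 fold change was -1.09 with ASO2 (SE 0.19, limma adjusted p = 1.46e-05) and -0.63 with ASO10 (SE 0.19, adjusted p = 0.00633). Without replicate 2 of ASO10 the latter was -0.48 (adjusted p = 0.0535) and no longer called. The ALK response to ASO2 differed between SK-N-BE(2)c and NGP by -0.23 (95% interval -0.69 to 0.23), and that to ASO10 by 0.42 (-0.05 to 0.88), neither of them called.

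**Figure D2:**
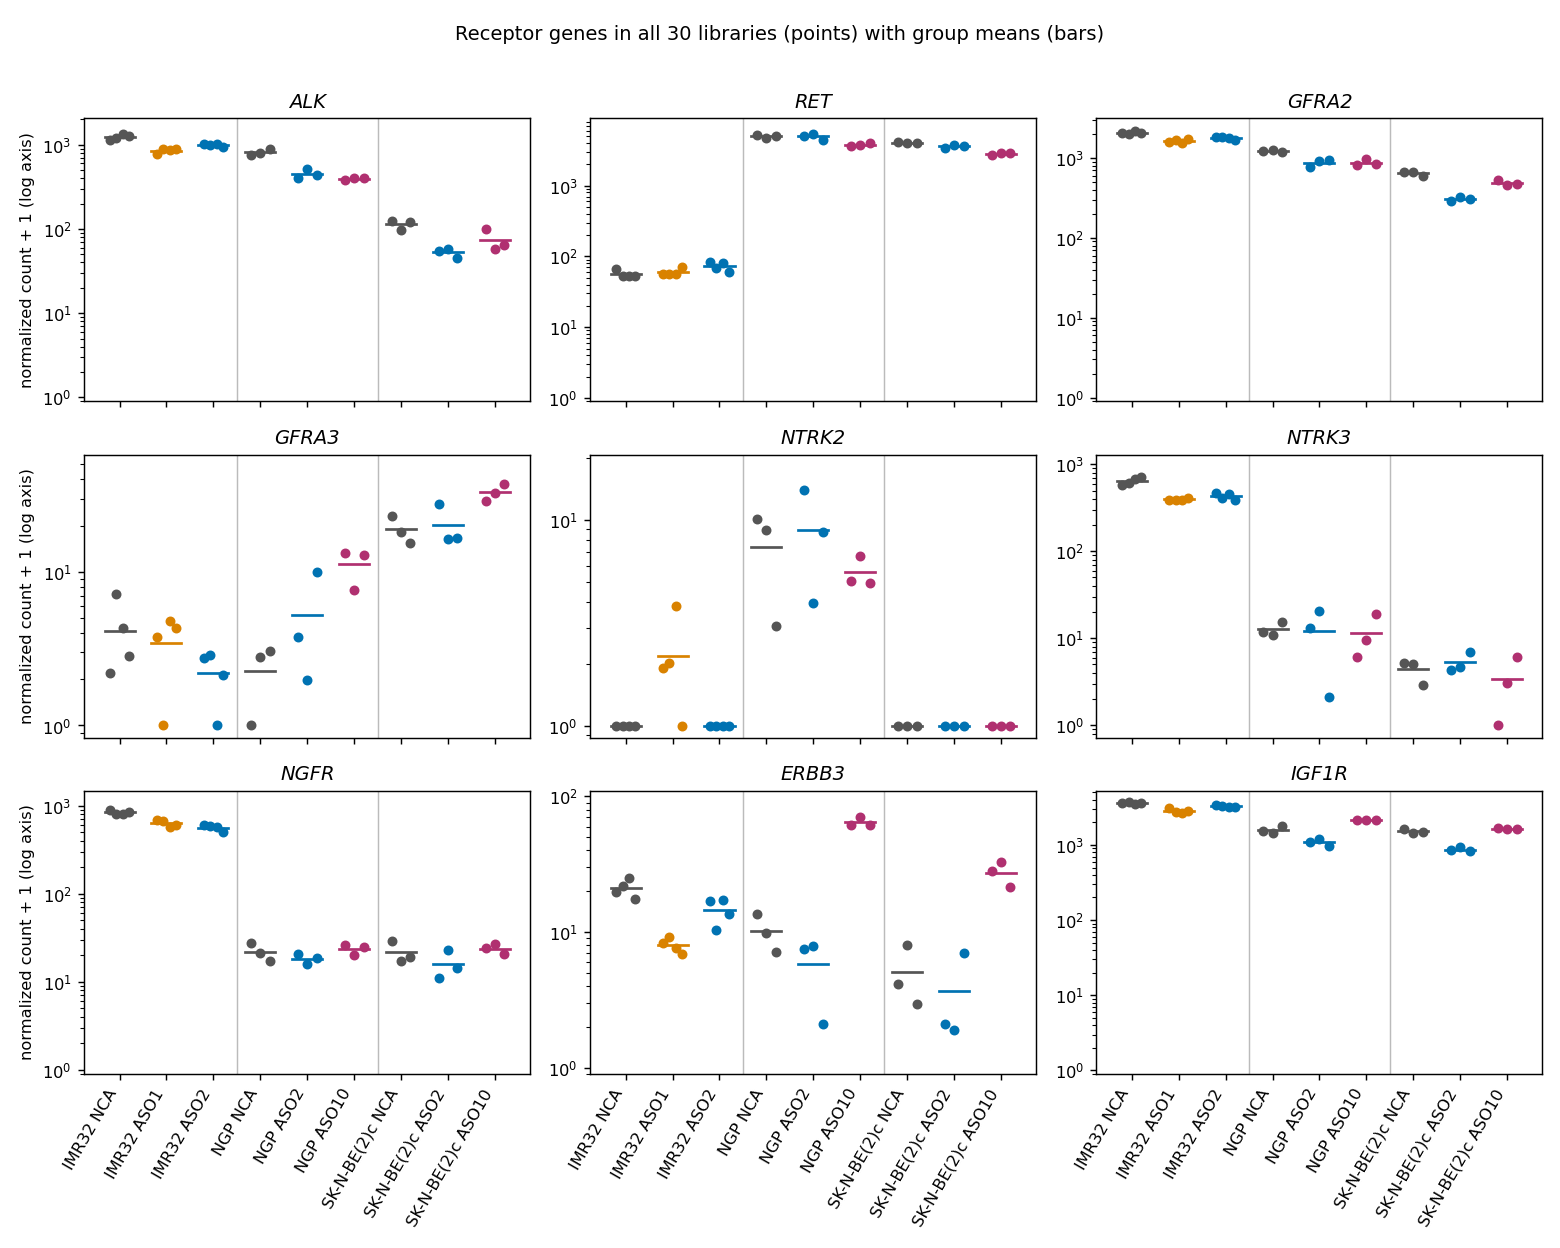
Normalized count + 1 on a log axis for each receptor gene (panels) in every library (points) of the 9 groups along the horizontal axis, with the group mean as a bar; grey is NCA, orange ASO1, blue ASO2 and purple ASO10. The ALK and GFRA2 points of every ASO group sit below those of NCA in the same line except for 1 ALK library of ASO10 in SK-N-BE(2)c, and levels should be compared between NGP and SK-N-BE(2)c but not with IMR32, which was scaled apart.

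ALK spans 729 kb in GENCODE release 29, NTRK3 397 kb, IGF1R 316 kb and GFRA2 122 kb, while RET spans 53.3 kb, ERBB3 26.7 kb, GFRA3 22.3 kb and NGFR 19.7 kb. Among all tested genes that span over 200 kb, the share called lower was 56.7% with ASO1 and 47% with ASO2 in IMR32, 59.9% with ASO2 and 58.9% with ASO10 in NGP, and 71.5% and 66.6% in SK-N-BE(2)c. Among genes of 50 to 200 kb, the class of GFRA2, it was 23.6%, 21.8%, 37.7%, 36.2%, 47.6% and 43% in the same order, with median log2 fold changes from -0.23 to -0.04. Among genes that span under 50 kb it was 6.87%, 8.91%, 20.8%, 21%, 23.9% and 23% in the same order. The median log2 fold change of genes over 200 kb ran from -0.67 to -0.21 over the 6 comparisons, and the value of ALK was further below 0 than that median in all 6. The part of gene length in the ALK, NTRK3, GFRA2 and IGF1R results was not tested. These length classes were chosen after the results were seen.

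Of the ALK ligands, ALKAL2 did not pass 6 reads in any IMR32 library, was at 0 reads in all NGP libraries and had at most 1 read in SK-N-BE(2)c, and ALKAL1 was too low to be tested. Midkine (MDK), a heparin-binding growth factor reported as an ALK ligand, rose in SK-N-BE(2)c by 0.52 with ASO2 and 0.54 with ASO10 (adjusted p = 2.03e-06 and 1.86e-06 in limma) and fell by 0.26 with ASO1 in IMR32 (adjusted p = 0.00161). Its relative pleiotrophin (PTN) fell in IMR32 by 0.44 with ASO1 and by 0.33 with ASO2 (adjusted p of 0.00173 and 0.0131 in limma). In SK-N-BE(2)c PTN rose by 0.29 with ASO2 and fell by 0.22 with ASO10 (adjusted p of 0.000853 and 0.0107 in limma), and in NGP it was not called (-0.60 and -0.03). LTK, the receptor kinase closest to ALK, was at 161.6 ± 15.6 normalized counts with NCA in NGP (SD, n = 3), at 83.7 ± 12.4 with ASO2 and at 290.6 ± 38 with ASO10. Its log2 fold change there was -0.95 with ASO2 (limma adjusted p = 1.59e-06) and 0.84 with ASO10 (adjusted p = 1.06e-05). The 3 groups of NGP did not overlap for LTK, with ASO2 lowest and ASO10 highest.

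RET, the kinase shared by all GDNF-family ligands, was the most abundant of the 9 genes per kilobase of exon in NGP and SK-N-BE(2)c. In NGP it was at 5107, 4663 and 5043 normalized counts with NCA, 5080, 5415 and 4450 with ASO2 and 3679, 3688 and 3954 with ASO10. The ASO2 libraries overlapped the controls on both sides, and the ASO10 libraries were all below. RET fell with ASO10 by 0.39 (log2, SE 0.06, limma adjusted p = 5.8e-06), and with ASO2 its log2 fold change was 0.01 (95% interval -0.11 to 0.13, adjusted p = 0.908).

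RET in SK-N-BE(2)c was at 4132, 3963 and 3966 normalized counts with NCA, 3405, 3738 and 3600 with ASO2 and 2707, 2848 and 2867 with ASO10. The 3 groups did not overlap, with ASO10 lowest. The fall was 0.17 with ASO2 (log2, SE 0.05, limma adjusted p = 0.00605), and with ASO10 the log2 fold change was -0.52 (SE 0.05, adjusted p = 1.87e-09). Scaling each library to the same total moved the median of all genes under ASO2 in this line from -0.02 to -0.15 and that of RET to -0.30, still called (adjusted p = 9.3e-06).

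RET was scarce in IMR32, with 66.1, 51.8, 52.7 and 52.4 normalized counts in the controls, 55.7, 56.2, 55 and 69.3 with ASO1 and 81.6, 68.7, 79 and 59.4 with ASO2. The groups overlapped. It was called higher with ASO2 at a log2 fold change of 0.36 (SE 0.14, limma adjusted p = 0.0448), and this call was lost with no minimum level (adjusted p = 0.0727), with each library at the same total (0.0672), with DESeq2 (0.0796), and without any one of ASO2 replicates 1, 2 or 3 or NCA replicates 2, 3 or 4 (0.0663 to 0.129).

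GFRA2, the co-receptor through which neurturin reaches RET, fell in every comparison with NCA, and no ASO library overlapped its controls in any line. In a single comparison with NCA, from 27.6% to 69.3% of all tested genes were likewise without overlap. In IMR32 the controls were at 2048, 2006, 2165 and 2056 normalized counts, ASO1 at 1590, 1660, 1525 and 1698, and ASO2 at 1814, 1831, 1796 and 1686. The log2 fold changes were small there, -0.35 with ASO1 (SE 0.05, limma adjusted p = 1.08e-05) and -0.22 with ASO2 (SE 0.05, adjusted p = 0.00165).

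In NGP the GFRA2 controls were at 1215, 1262 and 1177 normalized counts, ASO2 at 769.6, 901.5 and 938.9, and ASO10 at 824.3, 963.3 and 828.4. The ASO groups covered the same range, and their difference was 0.00 on the log2 scale (95% interval -0.16 to 0.15). GFRA2 fell by 0.49 with ASO2 and by 0.48 with ASO10 (limma adjusted p = 6.64e-06 and 8.94e-06).

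The GFRA2 controls in SK-N-BE(2)c were at 673.9, 661.4 and 586.9 normalized counts, ASO2 at 291.7, 324.5 and 308.3, and ASO10 at 522.6, 453.1 and 471.4. ASO2 left the lowest level, with all its libraries below those of ASO10. The log2 fold change was -1.05 with ASO2 (SE 0.09, limma adjusted p = 1.39e-11) and -0.41 with ASO10 (SE 0.09, adjusted p = 0.000168). The ASO2 response was larger in SK-N-BE(2)c than in NGP by a tested difference of -0.56 (SE 0.12, adjusted p = 0.00185), whereas the ASO10 responses differed by 0.08 (95% interval -0.16 to 0.32). GFRA2 was the only receptor gene of 7 tested whose ASO2 response differed between the lines, where 16.7% of all genes did.

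GFRA3, the co-receptor for artemin, stayed at or below 5 reads in every IMR32 library. In NGP it was at 0, 1.77 and 2.05 normalized counts with NCA, at most 2 reads, at 2.79, 0.987 and 8.9 with ASO2, and at 12.2, 6.66 and 11.8 with ASO10, which was above all controls but below the level for a test. The SK-N-BE(2)c controls were at 22, 17.1 and 14.5, ASO2 at 26.5, 15.4 and 15.6, and ASO10 at 27.9, 31.7 and 36.1. GFRA3 rose there with ASO10 by 0.82 (log2, SE 0.30, limma adjusted p = 0.0227), on libraries of 42 reads or fewer, and leaving out ASO10 replicate 2 or 3 or NCA replicate 2 or 3 gave an adjusted p between 0.0519 and 0.0896.

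Among the ligands of the RET system, persephin (PSPN), which signals through GFRA4, rose in all 6 comparisons. It went from 110.7 ± 10.5 normalized counts with NCA in NGP (SD, n = 3) to 170.2 ± 28.5 with ASO2 and 382.9 ± 28.7 with ASO10, while in SK-N-BE(2)c it went from 72.1 ± 19.1 to 142.1 ± 4.61 and 260.7 ± 39.1. Its log2 fold change was 1.78 and 1.87 with ASO10 (limma adjusted p = 1.35e-11 and 7.63e-11). GDNF, which binds GFRA1, rose in NGP with ASO2 and ASO10 (0.60 and 1.37, limma adjusted p = 0.0227 and 1.12e-05) and fell in SK-N-BE(2)c with both (-0.36 and -0.64, adjusted p = 0.00973 and 4.47e-05). NCAM1, an alternative GDNF receptor with GFRA1, fell in the 4 comparisons of ASO1 and ASO2 (-0.69 to -0.28) and was not called with ASO10 in either line (-0.06 and -0.03). GFRA1 itself was in IMR32 at 1360 ± 125.3 normalized counts with NCA (SD, n = 4), and fell by 0.31 with ASO1 (limma adjusted p = 0.00675). Neurturin (NRTN), the ligand of GFRA2, was tested only in SK-N-BE(2)c, at 33 reads or fewer, where it fell by 0.80 with ASO2 and by 0.68 with ASO10 (limma adjusted p = 0.0191 and 0.0497). Artemin (ARTN), the ligand of GFRA3, fell there by 1.25 with ASO2 (limma adjusted p = 0.0168), and its value with ASO10, 0.85, was not called (adjusted p = 0.108).

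NTRK3 (TRKC), the receptor of neurotrophin 3, was at 579.3, 613.1, 672.1 and 712.9 normalized counts in IMR32 controls, 387.8, 384.4, 389.6 and 412.7 with ASO1 and 467.5, 414.3, 453.6 and 384.0 with ASO2. All ASO libraries were below all controls, and the ASO groups overlapped one another. The log2 fold change was -0.71 with ASO1 (SE 0.07, limma adjusted p = 3.73e-07) and -0.58 with ASO2 (SE 0.07, adjusted p = 5.7e-06). In NGP no library exceeded 20 reads of NTRK3 and in SK-N-BE(2)c none exceeded 6. The NGP values gave log2 fold changes of -0.59 with ASO2 (95% interval -1.81 to 0.63) and -0.28 with ASO10 (SE 0.59), so that a difference was not detectable at this depth.

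NTRK2 (TRKB), the receptor of brain-derived neurotrophic factor, was at 0 reads in all 9 SK-N-BE(2)c libraries and in all IMR32 control and ASO2 libraries, with at most 3 reads in an ASO1 library. In NGP it was at 9.11, 7.98 and 2.05 normalized counts with NCA, 13, 2.96 and 7.79 with ASO2 and 4.08, 5.71 and 3.94 with ASO10. These groups overlapped, and the gene lay below the level for a test in every table.

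NGFR (p75), which binds all neurotrophins and carries a death domain, was at 903.7, 812.9, 811.6 and 856.2 normalized counts in IMR32 controls, 691.7, 673.7, 579.1 and 595.7 with ASO1 and 595.5, 593.2, 566.8 and 498.2 with ASO2. No ASO library reached the lowest control. NGFR fell by 0.42 with ASO1 and by 0.59 with ASO2 (log2, SE 0.07 each, limma adjusted p = 0.000116 and 3.06e-06). Elsewhere every library held 29 or fewer reads of NGFR, and the log2 fold changes of -0.25 and 0.12 in NGP and -0.48 and 0.16 in SK-N-BE(2)c (ASO2 and ASO10) were not called. Their 95% intervals ran from -0.85 to 0.35 and from -0.48 to 0.72 in NGP, while those of SK-N-BE(2)c ran from -1.17 to 0.20 and from -0.53 to 0.85. An antisense gene (AC006487.1) and another gene model (AC015656.1) overlap NGFR on the other strand, at no more than 7 reads in any library of a table that lists them.

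Of the neurotrophin partners, BDNF rose by 0.20 with ASO2 in IMR32 and by 0.27 with ASO2 in NGP (limma adjusted p = 0.0222 and 0.0139), and fell by 0.88 with ASO2 in SK-N-BE(2)c (adjusted p = 0.0452), where it was at 26 reads or fewer. Sortilin (SORT1), which pairs with p75 in binding proneurotrophins, was called in opposite directions with the ASOs in NGP (-0.39 with ASO2 and 0.34 with ASO10, adjusted p = 8.75e-05 and 0.000567) and in SK-N-BE(2)c (-0.34 and 0.45, adjusted p = 3.25e-05 and 7.99e-07), and was not called in IMR32.

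ERBB3, the neuregulin receptor that signals by pairing with ERBB2 because its own kinase is weak, was in NGP at 12.7, 8.86 and 6.15 normalized counts with NCA, 6.5, 6.91 and 1.11 with ASO2 and 61.1, 69.4 and 61.1 with ASO10. For SK-N-BE(2)c the values were 3.14, 7.06 and 1.93 with NCA, 1.1, 0.906 and 6 with ASO2 and 27, 31.7 and 20.6 with ASO10. The ASO10 libraries stood above all others of their line. The gene passed the minimum level in these tables only through ASO10 and so had to differ there, and the fitted log2 fold changes of 2.71 in NGP (SE 0.42) and 2.55 in SK-N-BE(2)c (SE 0.57) are given as a description, with no test. The ASO10 responses of the lines differed by -0.16 (95% interval -1.62 to 1.31).

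With ASO2 in NGP ERBB3 was called lower at -0.98 (SE 0.42, limma adjusted p = 0.0491) although the groups overlapped. Without ASO2 replicate 3 the value was -0.36 (limma adjusted p = 0.4), without NCA replicate 1 it was -0.75 (0.19) and without NCA replicate 2 it was -0.99 (0.0687). The call was also lost with edgeR (adjusted p = 0.116), with DESeq2 (0.135), with no minimum level (limma, 0.144) and with a pseudocount of 5 (limma, 0.0782). In IMR32 ERBB3 was at 18.9, 21, 24.2 and 16.5 normalized counts with NCA, 7.3, 8.18, 6.63 and 5.85 with ASO1, at 8 reads or fewer, and 15.8, 9.42, 16.2 and 12.6 with ASO2. Both ASO groups lay below the controls. ERBB3 fell with ASO1 by 1.40 (SE 0.24, limma adjusted p = 0.00019), and with ASO2 the log2 fold change of -0.56 (SE 0.24) was not called (adjusted p = 0.0821).

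ERBB3 is also a marker of Schwann cell precursors. Of the 6 Schwann lineage markers examined, SOX10 and CDH19 were at or below 3 reads in every group. Their summed level with ASO10 was 5.92 to 14.3 normalized counts against 11.3 to 18.2 with NCA in NGP, and 48.1 to 52.1 against 47.1 to 63.6 in SK-N-BE(2)c, so that the list was not higher with ASO10 in either line. ERBB2 went down with ASO2, from 211.1 ± 44.5 to 104.2 ± 11.5 normalized counts in NGP (SD, n = 3; log2 fold change -0.99, limma adjusted p = 1.47e-06) while in SK-N-BE(2)c it went from 26 ± 5.88 to 8.1 ± 5.59 (-1.72, adjusted p = 0.000136). Neuregulin 1 (NRG1), the ligand of ERBB3, fell with ASO10 by 1.32 in NGP, and by 1.21 in SK-N-BE(2)c (adjusted p = 0.000477 and 9.5e-10). EGFR fell in all 6 comparisons, by 0.22 to 0.70, and ERBB4 in both of IMR32 (-0.46 and -0.34, adjusted p = 4.79e-05 and 0.00111). ERBB4 was also called lower with ASO10 in SK-N-BE(2)c (-1.26, adjusted p of 0.0392 in limma), at 23 reads or fewer and with overlapping libraries, was not called there with ASO2 (-0.62) and was not tested in NGP.

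IGF1R, the receptor of insulin-like growth factors 1 and 2, was in NGP at 1546, 1437 and 1780 normalized counts with NCA, 1091, 1206 and 976.7 with ASO2 and 2132, 2123 and 2141 with ASO10. The ASO groups lay on opposite sides of the controls without overlap. IGF1R fell with ASO2 by 0.54 (log2, SE 0.07, limma adjusted p = 9.31e-07) and rose with ASO10 by 0.43 (SE 0.07, adjusted p = 2.64e-05).

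IGF1R in SK-N-BE(2)c was at 1630, 1452 and 1487 normalized counts with NCA, 842.0, 926.4 and 835.0 with ASO2 and 1689, 1615 and 1625 with ASO10. ASO2 lay far below the controls and ASO10 overlapped them. The fall with ASO2 was 0.81 (SE 0.06, limma adjusted p = 7.39e-12), and the log2 fold change with ASO10 was 0.11 (SE 0.06, adjusted p = 0.137). The ASO10 response was lower in SK-N-BE(2)c than in NGP by a tested difference of -0.32 (SE 0.10, adjusted p = 0.0366), the only such call among 7 receptor genes, where 16.9% of all genes were called. Leaving out 1 library at a time gave that difference an adjusted p above 0.05 in 9 of 12 cases.

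In IMR32 IGF1R was at 3628, 3718, 3551 and 3657 normalized counts with NCA, 3095, 2727, 2652 and 2796 with ASO1 and 3386, 3342, 3187 and 3180 with ASO2. The 3 groups did not overlap. The log2 fold change was -0.37 with ASO1 (SE 0.05, limma adjusted p = 7.72e-06) and -0.15 with ASO2 (SE 0.05, adjusted p = 0.0193), the latter with an adjusted p between 0.0507 and 0.0602 without ASO2 replicate 3, ASO2 replicate 4 or NCA replicate 2.

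Around IGF1R, the insulin receptor INSR and the binding protein IGFBP5 fell in all 6 comparisons, INSR by 0.27 to 0.73 and IGFBP5 by 0.23 to 0.67. IGFBP4 rose in 5 of 6, by 0.15 to 0.55, and was not called with ASO10 in SK-N-BE(2)c. IRS2, a docking protein of both receptors, rose in all 6 by 0.33 to 0.98. The ligand IGF2 rose in IMR32 by 0.49 with ASO1 and 1.32 with ASO2 (limma adjusted p = 0.0153 and 1.63e-06), from a low 45.8 ± 5.13 normalized counts (SD, n = 4), and fell with ASO10 by 0.51 in NGP, and by 0.72 in SK-N-BE(2)c (adjusted p = 8.12e-06 and 5e-09).

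The NESPR ASOs were also compared with each other in each line. In IMR32, 4 of the 7 tested receptor genes (ALK, GFRA2, ERBB3 and IGF1R) were lower with ASO1 than with ASO2 and none was higher, where 21.9% of all genes were called; the GFRA2 difference of -0.14 was the smallest (limma adjusted p = 0.0401) and its libraries overlapped. The GFRA2 call was lost in 9 of 15 alternatives (adjusted p = 0.202 in limma at the same total per library) and the ERBB3 call in 4 of 15 (0.0694 with no minimum level, 0.0637 with DESeq2). In NGP, ERBB3 and IGF1R were lower and RET higher with ASO2 than with ASO10 (58.6% of all genes called), and in SK-N-BE(2)c ALK, GFRA2, GFRA3, ERBB3 and IGF1R were lower and RET higher (65.4%). In both lines ERBB3 passed the minimum only through ASO10, so that its difference supports nothing. The GFRA3 difference in SK-N-BE(2)c (-0.74, adjusted p of 0.0336 in limma) was lost in 6 of 13 alternatives, among them no minimum level (0.104) and DESeq2 (0.0547). The difference, ASO2 minus ASO10, for IGF1R was -0.97 and -0.92 (limma adjusted p = 3.66e-11 and 5.3e-13), and for RET 0.40 and 0.35 (3.33e-06 and 1.18e-06). For ALK in SK-N-BE(2)c it was -0.46 (limma adjusted p = 0.0385), a call that was lost without ASO10 replicate 1 (-0.22, adjusted p = 0.335) or ASO2 replicate 3 (-0.35, adjusted p = 0.146), or with no minimum level (adjusted p = 0.0723).

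In control-treated cells the order of the receptors, per kilobase of exon, differed between lines. IMR32 had most GFRA2 (361.9 ± 11.8 normalized counts per kb, SD, n = 4), then IGF1R (261.0 ± 4.98), NGFR (203.9 ± 10.5) and ALK (168.5 ± 10.8), and far less per kb of NTRK3 (24.1 ± 2.23) and RET (8.07 ± 0.998). Exon length joins the exons of all transcripts of a gene, 26750 bases for NTRK3 against 4150 for NGFR. Before division by length, the IMR32 control means were 644.3 for NTRK3 and 846.1 for NGFR. NGP had most RET (714.4 ± 34.7, n = 3), then GFRA2 (213.1 ± 7.41), with IGF1R (113.9 ± 12.6) and ALK (110.7 ± 9.72) within 1 SD of each other, and NGFR far lower (5.08 ± 1.21). SK-N-BE(2)c had most RET (581.8 ± 14, n = 3), then GFRA2 (112.1 ± 8.22) and IGF1R (109.3 ± 6.78), within 1 SD of each other, with ALK at 15.2 ± 2.03, GFRA3 at 8.76 ± 1.87 and NGFR at 5.04 ± 1.56. ERBB3, NTRK3 and NTRK2 were the last in SK-N-BE(2)c, each below 1 normalized count per kb.

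**Figure D3:**
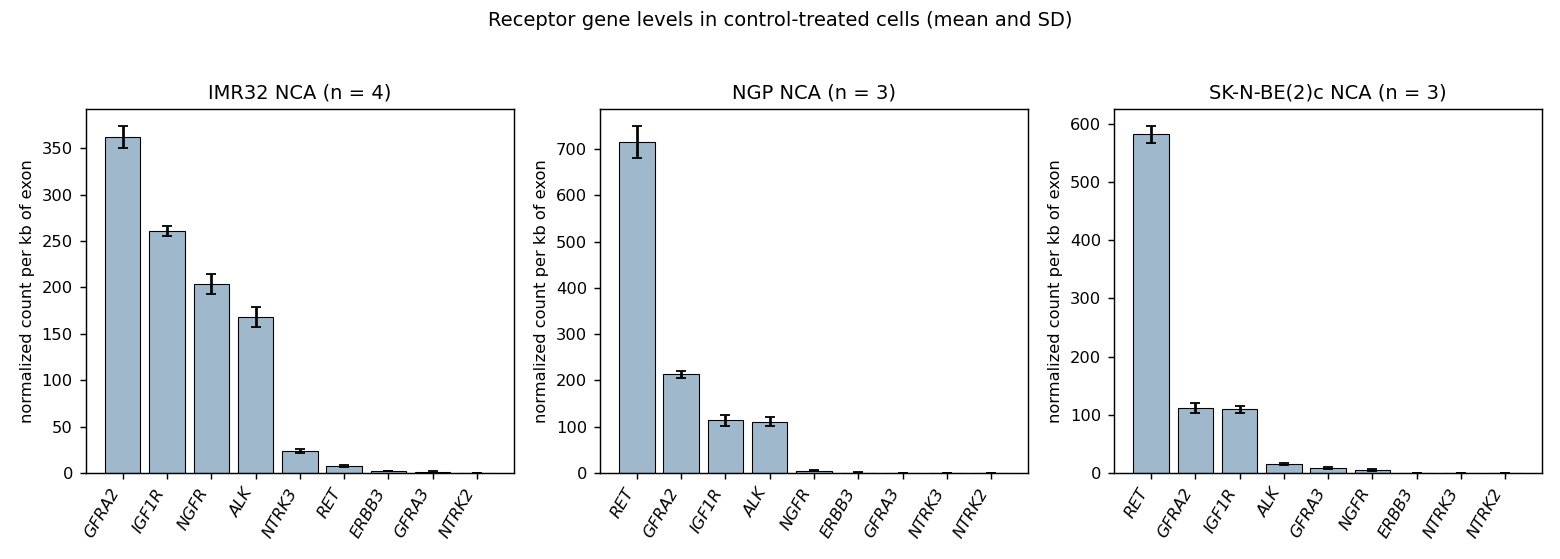
Mean normalized count per kilobase of exon of each receptor gene in control-treated cells of the 3 lines, ordered by level in each line, with SD as error bars; each panel has its own axis from 0. GFRA2 leads in IMR32 at 361.9, and RET leads in NGP at 714.4 and in SK-N-BE(2)c at 581.8.

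SK-N-BE(2)c and NGP had been scaled together, so their controls could be compared. Of 7 tested receptor genes, ALK, RET, GFRA2 and ERBB3 were higher and GFRA3 lower in NGP, where 77% of all genes were called. ALK differed by 2.86 on the log2 scale (SE 0.16, limma adjusted p = 2.95e-14), GFRA2 by 0.93 (SE 0.08, adjusted p = 2.46e-10) and RET by 0.30 (SE 0.06, adjusted p = 7.23e-05). GFRA3 passed the minimum level only through SK-N-BE(2)c and so had to differ, so that its place in this count supports nothing. The ERBB3 difference of 1.10 (adjusted p = 0.0492) overlapped between libraries and was lost without NGP replicate 1 or 2 or SK-N-BE(2)c replicate 1 or 3 (adjusted p from 0.0847 to 0.205). IGF1R (0.06, 95% interval -0.10 to 0.21) and NGFR (0.03, -0.59 to 0.64) were not called.

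Over the wider pathway, 8 lists of 90 ligands, co-receptors, adaptors and regulators were examined. Among those tested, 7 were higher and 24 lower of 69 with ASO1 in IMR32, 17 and 19 of 69 with ASO2 in IMR32, 26 and 20 of 69 with ASO2 in NGP, 14 and 27 of 69 with ASO10 in NGP, 21 and 25 of 65 with ASO2 in SK-N-BE(2)c, and 12 and 29 of 65 with ASO10 in SK-N-BE(2)c. Of all genes tested, 13.6% were higher and 14.4% lower, 17.6% and 14.8%, 30.6% and 28.1%, 26.8% and 27.6%, 33.6% and 33.4%, and 27.8% and 31.1% in the same order. The adaptor DOK6, which binds activated RET, fell in all 6, for example by 1.03 and 1.27 with ASO2 and ASO10 in SK-N-BE(2)c, and GAB2, a scaffold that recruits PI3K, fell in all 6 by 0.27 to 1.24. SOS1, the exchange factor that loads RAS, fell with ASO2 by 1.27 in NGP, and by 1.81 in SK-N-BE(2)c (adjusted p of 3.39e-12 and 4e-17 in limma), rose with ASO10 by 0.29 in NGP (adjusted p = 0.0049) and was not called with ASO10 in SK-N-BE(2)c.

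**Figure D4:**
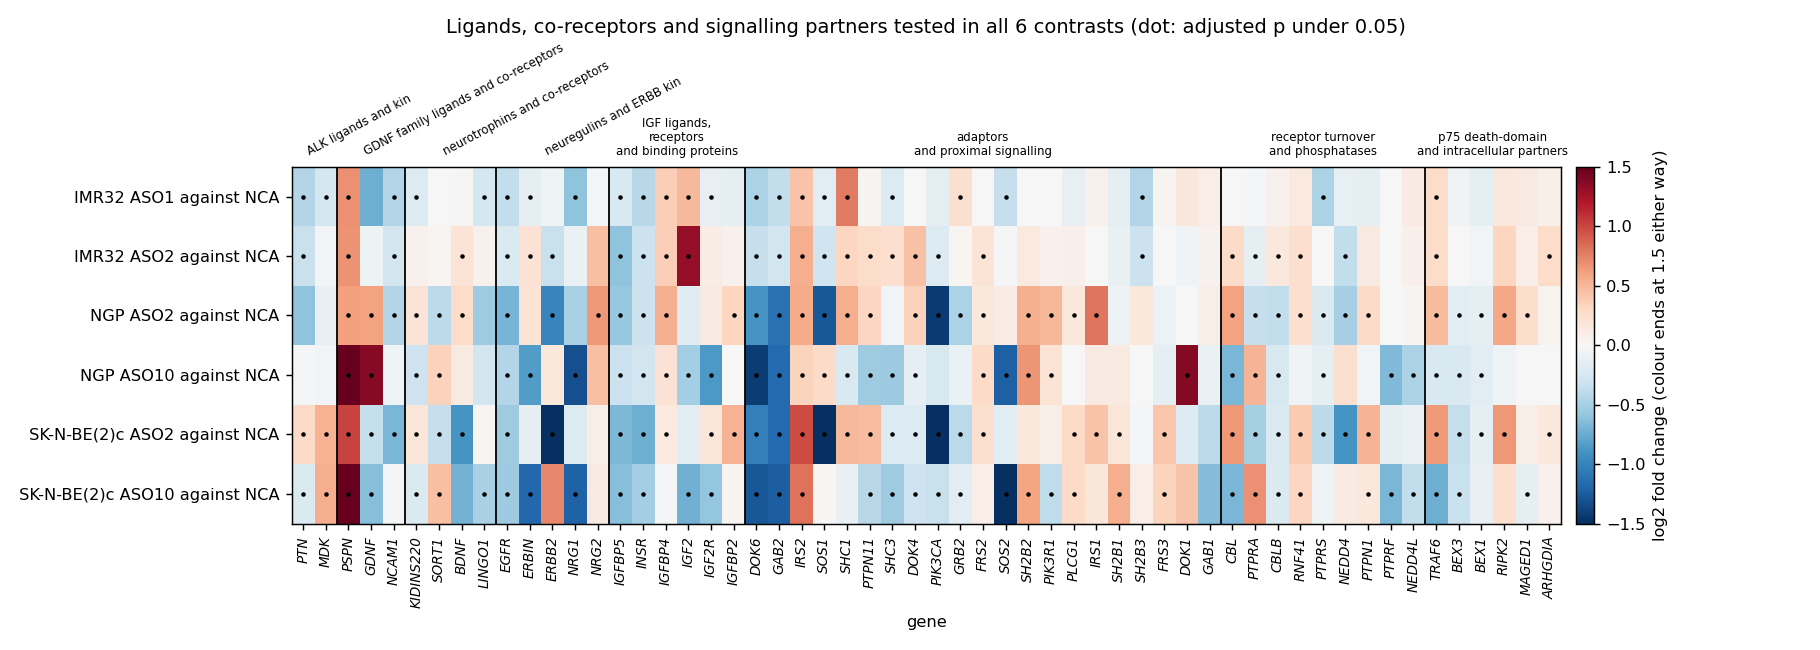
Log2 fold change (colour, blue lower and red higher, ending at 1.5 either way) of pathway genes tested in all 6 comparisons (columns, grouped by list) in each comparison with NCA (rows); a dot marks an adjusted p under 0.05 in limma. PSPN and IRS2 are red in every row, and DOK6, GAB2, EGFR, INSR and IGFBP5 are blue in every row.

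The genes whose pattern over the 30 libraries was most like that of a receptor, after the mean of each line was removed, were found among 11593 genes tested in all tables, and libraries of a group share their treatment. For ALK they were COG5, ASTN2 and TMEM108 (Pearson r 0.951, 0.948 and 0.939), which span 363, 990 and 359 kb. For GFRA2 they were SLIT3, TENM4 and SETBP1 (0.93, 0.928 and 0.927), which span 639, 788 and 388 kb. For IGF1R they were SCAF11, PAN3 and FAM120A (0.967 for PAN3, 0.964 for FAM120A and higher for SCAF11), for ERBB3 CUBN, ALPK3 and NSD1 (0.917, 0.899 and 0.898), for RET USP16 and LRPPRC were among them (0.817 and 0.814), and for NGFR ZNF573, PRELID3A and TTLL11 (0.748, 0.739 and 0.734). In the order named, those of IGF1R span 73, 157 and 114 kb, and those of ERBB3 306, 56.8 and 167 kb. USP16 and LRPPRC span 29.9 and 109 kb, and those of NGFR 81.5, 24.3 and 272 kb. The part of gene length in these likenesses was not tested. Among the receptors themselves r was highest for ALK with GFRA2 (0.884) and for ERBB3 with IGF1R (0.775). The other pairs ran from -0.561 (RET with ERBB3) to 0.594 (NGFR with IGF1R). In NGP and SK-N-BE(2)c ERBB3 passed the minimum level only through ASO10, so that its correlations and its most similar genes support nothing.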

How the data were processed

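RNA of 30 libraries in 9 groups was measured. The deposited values are gene counts that the authors normalized, a signal equal to the count divided by one size factor per library, in 1 table per line. Per the submitters' processing notes, FastQC 0.11.8, cutadapt 1.18, STAR 2.6.0, HTSeq 0.6.1 and DESeq2 1.42.0 and the builds hg19 and GRCh37 were used; whether counting used strand is not given in the sources used here. Per the labels' protocols, libraries came from a stranded total RNA kit or a stranded mRNA kit, and which library had which is not stated; a total RNA kit also counts unspliced RNA, which can change levels and the set of genes seen. Whole reads were recovered from the value steps (100% of values whole within 0.01). No per-sample column was left unused (0). Entries without a gene ID (0.172% of values in IMR32, 0% elsewhere) stayed out.

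The median ratio to a pooled reference was 1.0120 in all 18 NGP and SK-N-BE(2)c libraries and 1.0069 to 1.0070 in IMR32, so levels were tested between the former lines only. Tests used log2(normalized count + 1) and limma 3.58.1 under R 4.3.3 (group means per line, mean-variance trend, two-sided, Benjamini-Hochberg over all genes with a mean of at least 10: 17309 in IMR32, 14440 in NGP, 13556 in SK-N-BE(2)c and 14537 in the joint fit of NGP and SK-N-BE(2)c). The scripts were tested on simulated data. Alternatives were pseudocounts of 0.5 and 5, no minimum level, the same total per library, edgeR 4.0.16 and DESeq2 1.42.0 on recovered reads, a replicate block, leaving out each library, and a log2 fold change of at least 1. Exon lengths (the union over all transcripts of a gene) and gene spans came from GENCODE release 29.

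All 9 receptors are named; some other genes and a motif that the rule or the search covered are not reported here. Of the pathway lists, family receptors and ligands could be named, and of each other list up to 4 genes, those called most often. The members and lists were chosen with earlier results of these data known. The labels do not say what a replicate number stands for, and in no pair of groups did every number correlate above 0.1, so numbers were not treated as pairs. In SK-N-BE(2)c and NGP the column name of control replicate 1 is spelled differently from those of replicates 2 and 3; the titles place all in 1 group.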

Additional observations from a re-analysis of the deposited data

Results flagged for a closer look

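RET in IMR32 had a library far from the rest of its group in both ASO1 and NCA. Replicate 4 of ASO1 was at 69.3 normalized counts and the others between 55 and 56.2, and replicate 1 of NCA was at 66.1 and the others between 51.8 and 52.7. Each gap, as a share of the range of the 4 libraries, exceeded Dixon's 95% critical value, which chance passes in about 1 of 20 groups. The response of GFRA2 to ASO2 differed between lines, by -0.56 on the log2 scale as SK-N-BE(2)c minus NGP (limma adjusted p = 0.00185). The response of IGF1R to ASO10 differed by -0.32 in the same sense (limma adjusted p = 0.0366).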

How the results depend on the processing

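Of the 84 tested results of single receptor genes, 53 kept direction and side of the threshold under every alternative run on them (the limit on the size of the fold change was applied to counts only), and 31 did not, 14 of them with a change of sign. ALK and GFRA2 against NCA kept their calls in those except ALK with ASO10 in SK-N-BE(2)c, lost without replicate 2 of ASO10. A limit of 1 on the size of the log2 fold change left 222, 197 and 120 genes in IMR32 (ASO1, ASO2, and ASO1 against ASO2), 1410, 1686 and 1858 in NGP (ASO2, ASO10, ASO2 against ASO10), 1776, 1466 and 1883 in SK-N-BE(2)c, 4788 between the controls, and 311 and 454 for the differences of the ASO2 and ASO10 responses; the receptor genes left were 1, 0 and 0, then 0, 2 and 1, then 2, 1 and 1, then 3, and 0 and 0. ERBB3 was 1 of the 2 left for ASO10 in NGP. It was also the 1 left for ASO10 in SK-N-BE(2)c and for ASO2 against ASO10 in both lines. ERBB3 passed the minimum there only through ASO10, so that these places support nothing. Those left between the controls were ALK, ERBB3 and GFRA3. GFRA3 passed only through SK-N-BE(2)c, so that its place supports nothing, and the ERBB3 call was lost without single libraries. With no minimum level, the receptor calls were 2 for ASO1 against ASO2 in IMR32 and 0 for the ASO10 response difference, and at the same total per library the ASO2 response difference had 3. Leaving out 1 library gave 2 to 4 receptor calls for ASO1 against ASO2, 2 to 6 for ASO10 in SK-N-BE(2)c, 1 to 3 for the ASO2 and 0 to 1 for the ASO10 response difference. Signs changed in values near 0 or of few reads: RET with ASO2 in NGP was -0.06 at the same total (-0.05 to 0.09 leaving out 1 library), GFRA3 with ASO2 in SK-N-BE(2)c -0.06 (-0.17 to 0.22), NTRK3 for ASO2 against ASO10 in NGP 0.08 with edgeR and 0.06 with DESeq2 (-0.69 to 0.68), and NGFR between controls -0.01 with edgeR (-0.14 to 0.25). Leaving out 1 library also gave ranges across 0 for NTRK3 in NGP with ASO2 (-0.92 to 0.39) and ASO10 (-0.72 to 0.10), NGFR with ASO10 in NGP (-0.04 to 0.29) and SK-N-BE(2)c (0.00 to 0.38), GFRA2 for ASO2 against ASO10 in NGP (-0.06 to 0.08), IGF1R between controls (-0.03 to 0.13), NGFR in the response differences (ASO2 -0.53 to 0.00, ASO10 -0.13 to 0.27) and ERBB3 in them (ASO2 -0.24 to 0.79, ASO10 -0.48 to 0.25). The cause was not tested. A replicate block changed 1 call, NGFR for ASO1 against ASO2 in IMR32 (0.17, limma adjusted p = 0.00655, against 0.0806 without the block); the labels do not say what the numbers stand for, and the correlations of same-numbered ASO1 and ASO2 libraries ran from -0.0039 to 0.332. Genes below 10 normalized counts on average were limited by depth.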

Other observations

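Several regulators of receptor signalling from the same lists went opposite ways with ASO2 and ASO10 in both SK-N-BE(2)c and NGP, comparisons that share the control libraries of each line. CBL, the ubiquitin ligase that sends active receptor kinases for degradation, was at 0.60 (log2 fold change) under ASO2 and -0.69 under ASO10 in NGP (limma adjusted p = 3.49e-07 and 4.25e-08) and 0.65 and -0.69 in SK-N-BE(2)c (adjusted p = 1.4e-09 and 6.93e-10). The receptor phosphatase PTPRA went the other way, at -0.34 and 0.51 in NGP (adjusted p = 0.00134 and 1.71e-05) and -0.50 and 0.69 in SK-N-BE(2)c (adjusted p = 2.63e-06 and 1.88e-08). PTPRB, another receptor phosphatase, was at 62.1 ± 10.5 normalized counts with NCA in SK-N-BE(2)c (SD, n = 3), at 24.4 ± 4.66 with ASO2 and at 259.3 ± 47.4 with ASO10. TRAF6, an adaptor that p75 recruits, rose with ASO1 in IMR32 and with ASO2 in every line (0.27 to 0.64). It fell with ASO10 by 0.23 in NGP and by 0.73 in SK-N-BE(2)c (adjusted p of 0.037 and 0.00024 in limma). BEX3, a partner of the p75 death domain, fell in the 4 comparisons of NGP and SK-N-BE(2)c by 0.16 to 0.36.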
